A study of Homo sapiens with 6 samples.

Results

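The Wnt ligands, their receptors and secreted antagonists, the β-catenin destruction complex with GSK3B, and the TCF/LEF transcription factors were examined in MDA-MB-231-BR cells (libraries titled 231BR_1, 231BR_2 and 231BR_3), a brain-seeking variant of a human triple-negative breast cancer cell line, and in its parental MDA-MB-231 cells, called the brain-seeking and the parental line from here on. The genes were chosen by symbol: every WNT and FZD gene, SFRP1 to SFRP5, DKK1 to DKK4, and a fixed set of co-receptors, destruction complex genes and TCF/LEF factors. Of the 17039 genes listed, 46 matched. They were 18 Wnt ligands, 8 Frizzled receptors, 3 co-receptors, 7 secreted antagonists, 6 destruction complex genes and 4 TCF/LEF factors. The co-receptor ROR2 and the family members without a listed row were not analysed here.

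Poly(A) RNA of 3 libraries of MDA-MB-231-BR cells and 3 libraries of MDA-MB-231 cells was sequenced on a BGISEQ-500 sequencer. The comparison asks which transcripts differ between a line that spreads to the brain and the line it came from. The labels call the former human breast cancer brain metastasis cells and the latter human breast cancer cells, and both were grown in the same basal medium with serum, with no other treatment named. The brain-seeking medium also held 200 μg/mL G418, an antibiotic used to keep cells that carry a resistance gene, and the lines came to the laboratory from different sources, so that line, medium and source cannot be told apart. Each line is 1 cell line, and the sources used here call the 3 libraries parallel replicates without saying that they were separate cultures, so p-values measure the spread between these libraries, which may be technical.

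Wnt proteins are lipid-modified, secreted signals that bind a Frizzled receptor together with LRP5 or LRP6. Without a signal, the complex of AXIN, APC and the kinases GSK3 and casein kinase 1 marks β-catenin, the product of CTNNB1, for degradation, and with a signal β-catenin gathers and works with TCF/LEF factors on target genes. Some ligands, WNT5A among them, act mostly through ROR receptors, calcium or planar polarity without β-catenin, and DKK and SFRP proteins block the signal outside the cell. Wnt signals to blood vessel cells, WNT7B included, are known for their part in forming the vessels and the barrier of the brain.

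Expression was given as FPKM, fragments scaled to transcript length and to library size, which puts genes of different length on a common scale. The number of reads behind a value is unknown. Summed FPKM was between 465020 and 472007 in brain-seeking libraries and between 486937 and 496420 in parental libraries, and across 11124 genes libraries of the same line correlated at 0.997 or more, and libraries of different lines at 0.902 or less. Genes listed as markers of basal mesenchymal breast cancer cells were present, and all 7 had a mean of at least 1 FPKM in 1 or both lines. VIM, a mesenchymal filament, was between 2273 and 2566 FPKM in all libraries. Of the 7, VIM, EGFR, CAV1 and MSN were higher in every brain-seeking library, while CD44, KRT8 and KRT18 were lower in every one. The lines thus did not overlap for 100% of this list, against 78.4% of all genes tested below. Of the 7 luminal markers 2, CDH1 and PGR, stayed under 0.5 FPKM in all libraries, and the sum of the list was higher in brain-seeking cells (26.0 to 26.5 FPKM) than in parental cells (11.6 to 12.4 FPKM). The other 5 were higher in every brain-seeking library. Their means were 5.47 against 0.84 FPKM for FOXA1, 9.88 against 4.95 for ERBB2 and 8.70 against 5.06 for EPCAM. GATA3 had 1.24 against 0.433 FPKM, and ESR1, which did not pass the test below, had 0.927 against 0.790 FPKM. Neural and glial markers summed to between 1.72 and 1.79 FPKM in brain-seeking libraries and between 0.22 and 0.35 FPKM in parental ones, most of it MAP2, and fibroblast and endothelial markers to between 0.70 and 0.79 and between 0.25 and 0.26 FPKM. The sum of each list was higher in brain-seeking cells, and the part of these differences in the results was not tested.

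WNT7B, WNT5A, FZD4, FZD8, the antagonist DKK1 and GSK3B were higher in brain-seeking cells by more than 1 log2 unit, while WNT5B, FZD3, FZD5, FZD7 and ROR1 were lower by less than 1 log2 unit. Under other ways of processing, FZD5 reached -1.11 and ROR1 -1.15. Of the 46 genes, 31 reached a mean of 0.1 FPKM and were tested with limma on log2(FPKM + 0.1), with p-values adjusted by the Benjamini-Hochberg method over all 13465 genes that reached it. With an adjusted p under 0.05, 13 of the 31 were higher in brain-seeking cells, 8 were lower and 10 did not pass. The 21 called genes are 67.7% of the 31, against 77.3% of all genes tested, of which 44.4% were called higher and 32.9% lower. Likewise 21 of the 31, or 67.7%, had libraries without overlap between the lines, against 78.4% of all genes tested. Past an absolute log2 fold change of 1 were 6 higher genes and 1 lower gene, WNT10A, where 10.9% of all genes tested were higher and 4.34% lower by this criterion. The median log2 fold change was 0.08 over the 31 genes and 0.08 over all genes tested. The split depended on the scaling: with quantile normalization 12 were higher and 14 lower, the median of all genes moved from 0.08 to -0.06, and the share of all calls that were higher went from 57.4% to 45.6%.

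**Figure D1:**
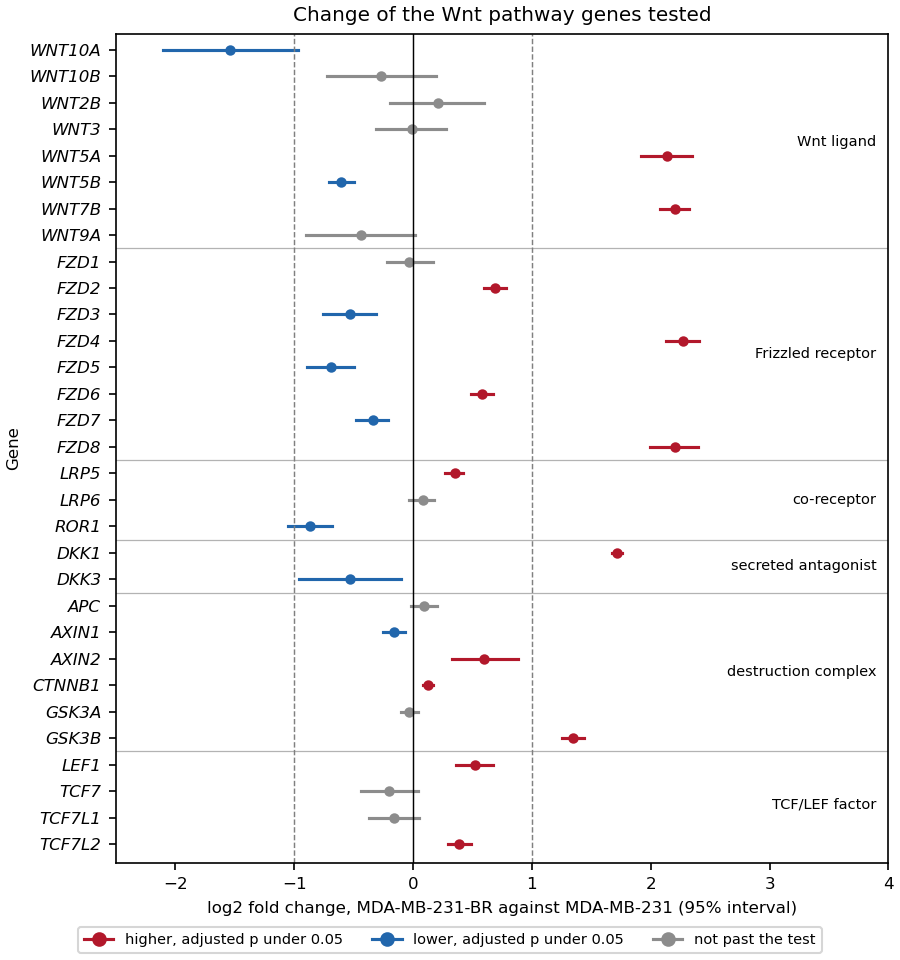
The log2 fold change of brain-seeking (MDA-MB-231-BR) against parental (MDA-MB-231) cells (x axis, on the log2(FPKM + 0.1) scale) is plotted for each of the 31 genes tested (y axis, grouped by role), with its 95% interval from the limma fit (red where called higher, blue where called lower, grey where the test was not passed), and dashed lines mark a log2 fold change of 1 in either direction. FZD4, FZD8, WNT7B, WNT5A, DKK1 and GSK3B lie beyond the right dashed line with short intervals, and WNT10A beyond the left with a wide one.

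Of the 46 genes, 22 had a mean of at least 1 FPKM in both lines, 3 (FZD5, WNT5A and AXIN2) in 1 line, and 21 in neither. Among these 21, 6 were tested and 15 were not, and the highest single value of those 15 was 0.11 FPKM, for WNT11 in brain-seeking replicate 2. They are 10 Wnt ligands (WNT1, WNT2, WNT3A, WNT4, WNT6, WNT7A, WNT8B, WNT9B, WNT11 and WNT16) and 5 antagonists (DKK2, DKK4, SFRP1, SFRP4 and SFRP5), and in 7 of the 15 each parental library was listed at 0.

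**Figure D2:**
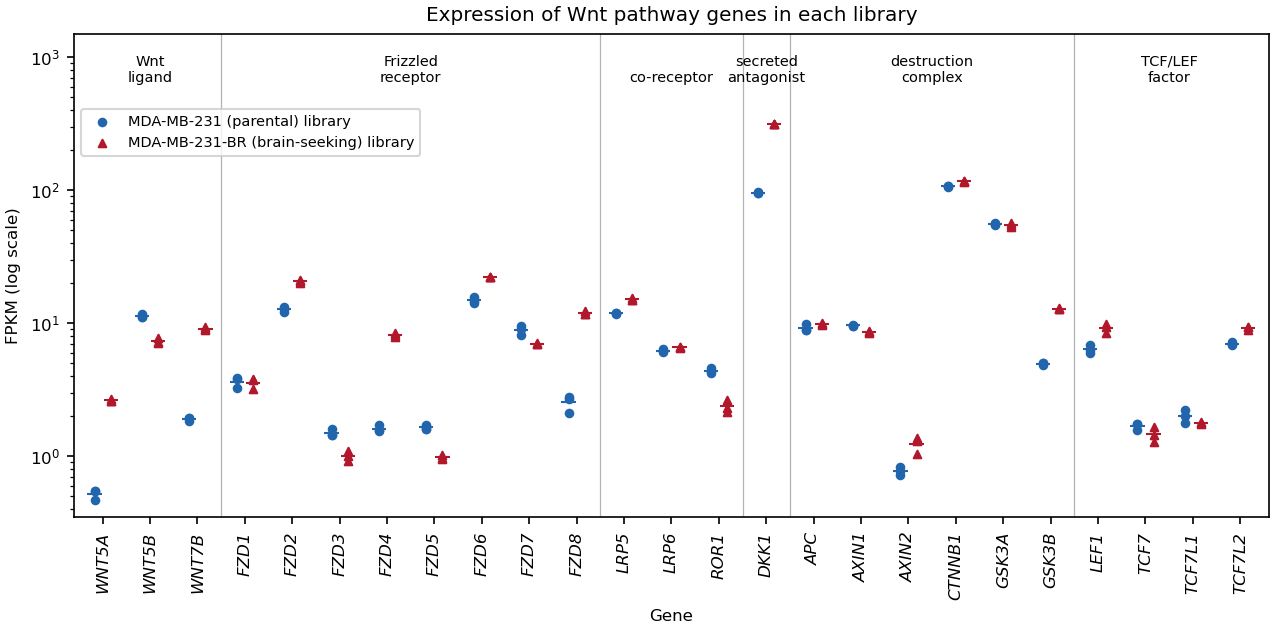
FPKM on a log axis (y) is plotted for the 25 genes with a mean of at least 1 FPKM in either line (x, grouped by role), with a point for each of 3 libraries per line (blue circles for parental, red triangles for brain-seeking) and a short bar at the mean. The libraries of a line lie close together, and the lines are farthest apart for WNT7B, WNT5A, FZD4, FZD8, DKK1 and GSK3B.

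Among the ligands WNT7B, which can signal through β-catenin, was the most abundant in brain-seeking cells. WNT7B had 9.12, 9.32 and 8.96 FPKM in the brain-seeking libraries and 1.85, 1.93 and 1.95 FPKM in the parental libraries. Every brain-seeking library was above every parental library, and the means differed 4.78-fold (log2 fold change 2.20, standard error 0.055, adjusted p = 3.0e-10). WNT5A, the ligand best known for signalling without β-catenin, had 2.61, 2.61 and 2.68 FPKM in brain-seeking libraries and 0.55, 0.55 and 0.47 FPKM in parental ones. The lines were again apart, with a mean 5.03-fold higher in brain-seeking cells (log2 fold change 2.14, standard error 0.096, adjusted p = 1.8e-08, and 1.25 at a pseudocount of 1). WNT5B, its close relative, went the other way, with 7.12, 7.81 and 7.28 FPKM in brain-seeking libraries and 11.68, 11.18 and 11.10 FPKM in parental ones. All brain-seeking values lay below all parental values, and the log2 fold change was -0.61 (standard error 0.048, adjusted p = 1.2e-06). In bulk libraries such as these, fewer cells with a transcript and less of it per cell cannot be told apart.

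These changes turned the order of the ligands around. In parental cells WNT5B led, followed by WNT7B, WNT3 and WNT5A, whereas in brain-seeking cells WNT7B led, followed by WNT5B, WNT5A and WNT3, and no neighbours among these overlapped in their libraries. WNT5B made up 71.6% ± 0.30 of the summed WNT FPKM in parental cells and 35.4% ± 0.971 in brain-seeking cells (SD, n = 3). WNT7B made up 12.1% ± 0.672 and 43.7% ± 0.379, and WNT5A made up 3.31% ± 0.263 and 12.6% ± 0.495, respectively. The ratio of WNT7B to WNT5B was 0.158, 0.173 and 0.176 in parental libraries and 1.28, 1.19 and 1.23 in brain-seeking libraries, so that the larger of the pair differed between the lines (exact two-sided permutation test, p = 0.1, the smallest that 3 against 3 libraries can give). Since WNT7B was higher and WNT5B lower in every brain-seeking library, the ratio had to separate, and the permutation test adds no evidence. The summed ligand level was 15.8 ± 0.459 FPKM in parental cells and 20.9 ± 0.566 FPKM in brain-seeking cells, a ratio of 1.32.

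**Figure D3:**
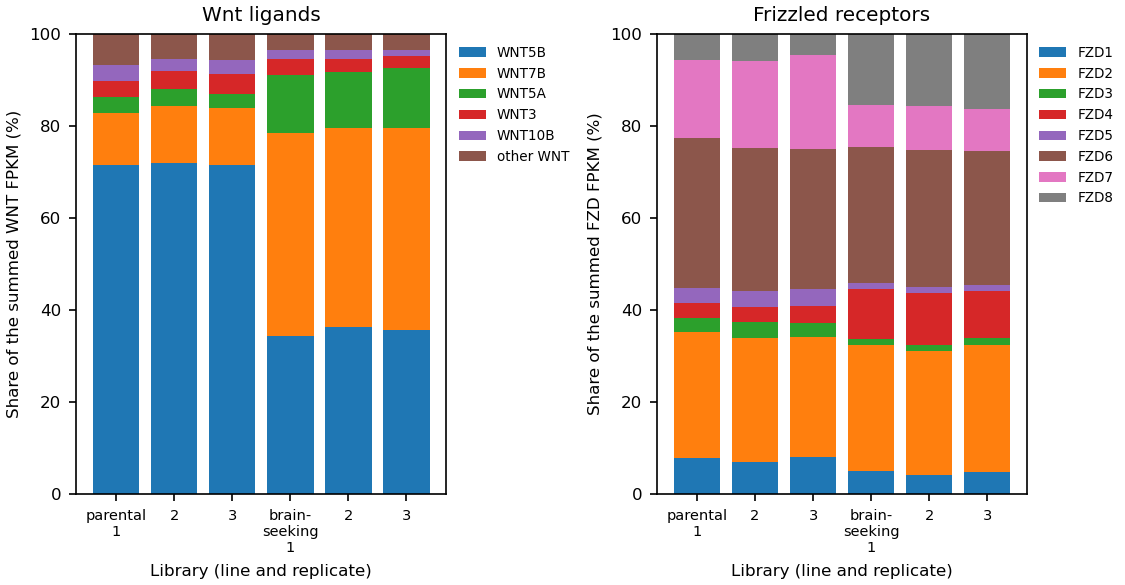
The share of the summed FPKM (y axis, %) is plotted for each library (x axis), for the 18 Wnt ligands on the left, 5 shown by name and the rest as other WNT, and for the 8 Frizzled receptors on the right. WNT5B takes about the same large share in all parental libraries (71.4% to 72.0%) and WNT7B the largest in all brain-seeking libraries (43.3% to 44.0%), while FZD8 and FZD4 take larger shares in brain-seeking libraries.

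The remaining ligands were low. WNT10A, a ligand of skin appendage and tooth development, had 0, 0 and 0.05 FPKM in brain-seeking libraries and 0.28, 0.27 and 0.16 FPKM in parental ones. It was called lower (log2 fold change -1.54, standard error 0.251, adjusted p = 2.7e-04), but its size depended on the pseudocount, from -3.72 to -0.28 over the alternatives, and it dropped under the level needed for testing without parental replicate 1 or without parental replicate 2. WNT3, WNT10B, WNT2B and WNT9A were between 0.18 and 0.72 FPKM in every library, overlapped between the lines and did not pass the test. Their 95% intervals were -0.31 to 0.28 for WNT3, -0.72 to 0.19 for WNT10B, -0.19 to 0.60 for WNT2B and -0.90 to 0.02 for WNT9A. WNT9A was called lower without parental replicate 2 (-0.61, adjusted p = 0.022) and without brain-seeking replicate 3 (-0.59, adjusted p = 0.036), and WNT3, WNT10B and WNT9A were called lower with quantile normalization.

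All 8 Frizzled receptors were tested, and 4 were higher in brain-seeking cells, 3 were lower and FZD1 did not pass, a share called of 87.5% against 77.3% of all genes tested. FZD4, which also binds the vascular ligand norrin, had 8.20, 8.42 and 7.86 FPKM in brain-seeking libraries and 1.56, 1.57 and 1.71 FPKM in parental ones. Its lines were apart by 5.06-fold in the means (log2 fold change 2.27, standard error 0.064, adjusted p = 7.1e-10). FZD8 had 11.68, 11.78 and 12.43 FPKM in brain-seeking libraries and 2.72, 2.79 and 2.13 FPKM in parental ones. FZD8 was 4.70-fold higher (log2 fold change 2.20, standard error 0.092, adjusted p = 1.1e-08), with no overlap of the libraries.

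The most abundant Frizzled genes moved less. FZD6, a receptor of planar polarity, had 22.36, 22.25 and 22.33 FPKM in brain-seeking libraries and 15.78, 14.72 and 14.25 FPKM in parental ones, a difference of 0.58 on the log2 scale (standard error 0.041). FZD2 had 20.86, 20.08 and 21.15 FPKM against 13.25, 12.83 and 12.25 FPKM, a difference of 0.69 on the log2 scale (standard error 0.040). Both were higher in every brain-seeking library, with adjusted p = 4.7e-07 for FZD6 and 1.1e-07 for FZD2. FZD7, the receptor often named in triple-negative breast cancer, had 6.96, 7.07 and 7.01 FPKM in brain-seeking libraries and 8.21, 9.0 and 9.63 FPKM in parental ones. It was lower in every brain-seeking library (log2 fold change -0.34, standard error 0.059, adjusted p = 3.7e-04).

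FZD5 and FZD3 were near 1 FPKM. FZD5 had 1.02, 0.97 and 0.96 FPKM in brain-seeking libraries and 1.62, 1.61 and 1.73 FPKM in parental ones (log2 fold change -0.69, adjusted p = 4.2e-05), and FZD3 had 0.93, 1.01 and 1.10 FPKM against 1.46, 1.61 and 1.46 FPKM (log2 fold change -0.53, adjusted p = 6.4e-04). Both were lower in brain-seeking cells without overlap of the libraries, with log2 fold changes of -0.42 and -0.32 at a pseudocount of 1 and of -1.11 and -0.94 with quantile normalization. FZD1 had 3.79, 3.22 and 3.73 FPKM in brain-seeking libraries and 3.87, 3.29 and 3.80 FPKM in parental ones. These overlapped, and the 95% interval of the log2 fold change was -0.22 to 0.17 (adjusted p = 0.77), while with quantile normalization it was called lower (-0.29, adjusted p = 0.0092).

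The order of the Frizzled transcripts shifted below the leading pair. FZD6 and FZD2 led in both lines without overlap. FZD7 and FZD1 followed in parental cells, ahead of FZD8, and FZD5, FZD4 and FZD3 at the end overlapped with their neighbours. In brain-seeking cells FZD8 and FZD4 came next after the leading pair, ahead of FZD7 and FZD1, and FZD3 and FZD5 overlapped at the end. FZD8 made up 5.34% ± 0.713 of the summed FZD FPKM in parental cells and 15.8% ± 0.414 in brain-seeking cells, FZD4 made up 3.39% ± 0.222 and 10.8% ± 0.497, and FZD7 made up 18.8% ± 1.79 and 9.26% ± 0.164 (SD, n = 3). The shares of FZD6 (31.3% and 29.5%) and FZD2 (26.8% and 27.3%) were close in both lines. The summed level was 47.6 ± 0.774 FPKM in parental cells and 75.7 ± 0.887 FPKM in brain-seeking cells, a ratio of 1.59.

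Of the co-receptors, LRP5 was higher, LRP6 did not pass and ROR1 was lower. LRP5 had 15.06, 15.38 and 15.04 FPKM in brain-seeking libraries and 11.82, 12.02 and 11.89 FPKM in parental ones (log2 fold change 0.35, standard error 0.034, adjusted p = 5.9e-06). LRP6, its partner with the same role, had 6.59, 6.57 and 6.62 FPKM against 6.44, 6.20 and 6.09 FPKM. The LRP6 libraries did not overlap, but the 95% interval of the log2 fold change was -0.03 to 0.18 (adjusted p = 0.15), and its sign turned with quantile normalization (-0.11). ROR1, a receptor of WNT5A, had 2.17, 2.30 and 2.65 FPKM in brain-seeking libraries and 4.36, 4.59 and 4.23 FPKM in parental ones. Every brain-seeking value was lower (log2 fold change -0.87, standard error 0.082, adjusted p = 4.5e-06, and between -1.15 and -0.68 over the alternatives). The ligand WNT5A and the receptor ROR1 thus differed in opposite directions.

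DKK1, which binds LRP5 and LRP6 and keeps Wnt from engaging them, was the most abundant of the 46 genes in brain-seeking cells. DKK1 had 317.29, 314.67 and 313.06 FPKM in the brain-seeking libraries and 97.04, 95.56 and 94.95 FPKM in the parental libraries. The libraries of a line differed little and the lines were 3.29-fold apart (log2 fold change 1.72, standard error 0.021, adjusted p = 4.6e-12). DKK1 made up 99.9% of the summed DKK FPKM in brain-seeking libraries and 99.6% in parental cells. DKK3 had 0.19, 0.35 and 0.21 FPKM in brain-seeking libraries and 0.41, 0.35 and 0.43 FPKM in parental ones. DKK3 was called lower (log2 fold change -0.53, standard error 0.193, adjusted p = 0.029), but the libraries touched at 0.35 FPKM, and the call was lost without brain-seeking replicate 1 (-0.41, adjusted p = 0.10), without brain-seeking replicate 3 (-0.46, adjusted p = 0.088), without parental replicate 1 (-0.51, adjusted p = 0.070) and without parental replicate 3 (-0.48, adjusted p = 0.084). The summed SFRP level was at most 0.05 FPKM in any library.

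DKK1 is itself known as a gene that β-catenin and TCF/LEF factors can switch on. Its promoter is printed because, among the 33 genes with a window, only DKK1 held the letters CTTTGA, a form of the core of their binding site. RefSeq promoter windows of GRCh38.p14, from 250 bases before to 50 after a gene's start, were found for 33 of the 46 genes, in 40 windows. The genes without a window, among them AXIN2, WNT7B, FZD2, FZD3, FZD6 and FZD7, were not searched. The letters CTTTGA, read on either strand, stood in 12.9% of all 35116 windows and at 2 or more places in 1.29% of them. They stood in the window of 1 of the 33 genes, DKK1, at 2 places. The 250 bases before its start, at chr10:52314031-52314280 on the plus strand, are given with these letters in capitals, the first match being on the minus strand and the second on the plus strand. The form CTTTGT was not searched for. It stands without capitals in the DKK1 promoter, and on either strand in windows of other genes, TCF7, TCF7L2 and WNT8B among them. A match is a description of the letters and not of binding, and an empty window says nothing about TCF/LEF factors elsewhere.
DKK1 promoter: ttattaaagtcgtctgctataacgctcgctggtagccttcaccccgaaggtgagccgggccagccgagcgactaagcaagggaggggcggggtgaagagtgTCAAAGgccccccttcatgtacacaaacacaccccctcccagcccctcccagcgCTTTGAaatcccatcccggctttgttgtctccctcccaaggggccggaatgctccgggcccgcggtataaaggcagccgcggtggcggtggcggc

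In the destruction complex GSK3B differed most. GSK3B, the kinase that marks β-catenin and many other proteins, had 13.05, 12.76 and 12.72 FPKM in brain-seeking libraries and 4.85, 5.07 and 5.05 FPKM in parental ones. It was 2.57-fold higher in brain-seeking cells with no overlap (log2 fold change 1.35, standard error 0.043, adjusted p = 1.6e-09). GSK3A, the second kinase of the pair with the same role on β-catenin, had 52.8, 54.8 and 56.9 FPKM in brain-seeking libraries and 54.8, 56.8 and 56.1 FPKM in parental ones. The GSK3A libraries overlapped, with a 95% interval of -0.10 to 0.04 for the log2 fold change (adjusted p = 0.45), and it was called lower by a small step with median-of-ratios scaling (-0.09, adjusted p = 0.027). The ratio of GSK3B to GSK3A was 0.247, 0.233 and 0.223 in brain-seeking libraries and 0.0886, 0.0893 and 0.0901 in parental libraries (exact two-sided permutation test, p = 0.1, the smallest possible here). With GSK3B higher in every brain-seeking library and GSK3A nearly level, this ratio too had to separate, and the permutation test adds no evidence. GSK3A stayed the larger transcript in both lines, with 91.8% ± 0.0639 of the summed GSK3 level in parental cells and 81.0% ± 0.776 in brain-seeking cells (SD, n = 3), and the sum was 60.9 ± 1.15 and 67.7 ± 1.88 FPKM, respectively.

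The study's shRNA targets for GSK3B are printed because they show how far the kinases can be told apart by sequence. None of the 1364 windows of 50 bases in the GSK3B coding sequence (1413 bases) occurs in the GSK3A coding sequence (1452 bases). Each target of 21 bases matched all 3 coding transcripts of GSK3B in GENCODE release 29 (GRCh38) exactly, on the minus strand of chromosome 3. Target 1 lies in coding exon 6 at chr3:119912707-119912727, target 2 in coding exon 8 at chr3:119876447-119876467 and target 3 in coding exon 7 at chr3:119905806-119905826. Capitals mark the bases that differ from the closest site in a GSK3A coding transcript, which are 5 in target 1, 4 in target 2 and 8 in target 3.
GSK3B shRNA 1: ccactgattaTacctcTAGTa
GSK3B shRNA 2: cccAaactacacAgaAttTaa
GSK3B shRNA 3: gctgAgcTgtTacTAGgACaa

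The substrate and the scaffolds moved by smaller steps. CTNNB1 had 116, 117 and 118 FPKM in brain-seeking libraries and 108, 106 and 108 FPKM in parental ones, a difference of 0.13 on the log2 scale (standard error 0.021, adjusted p = 3.6e-04), with no overlap. AXIN1, the scaffold on which the complex is built, had 8.62, 8.76 and 8.52 FPKM against 9.52, 9.62 and 9.79 FPKM, a difference of -0.16 on the log2 scale (standard error 0.039, adjusted p = 0.0042). AXIN2, a scaffold that β-catenin itself induces, had 1.38, 1.31 and 1.04 FPKM in brain-seeking libraries and 0.83, 0.73 and 0.78 FPKM in parental ones. Both AXIN genes were thus apart between the lines, in opposite directions, and the AXIN2 call (log2 fold change 0.60, standard error 0.123, adjusted p = 0.0012) was lost with quantile normalization (0.17, adjusted p = 0.24). APC had 10.07, 9.91 and 9.68 FPKM in brain-seeking libraries and 9.94, 8.98 and 8.98 FPKM in parental ones. The APC values overlapped, with a 95% interval of -0.02 to 0.20 (adjusted p = 0.13), and they were called higher without parental replicate 1 (0.14, adjusted p = 0.018) and turned to -0.04 with quantile normalization.

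Among the TCF/LEF factors, which carry β-catenin to DNA, LEF1 and TCF7L2 were higher in brain-seeking cells and TCF7 and TCF7L1 did not pass. LEF1 had 9.82, 8.48 and 9.31 FPKM in brain-seeking libraries and 6.91, 5.96 and 6.31 FPKM in parental ones (log2 fold change 0.52, standard error 0.069, adjusted p = 6.1e-05). TCF7L2 had 9.44, 8.88 and 9.40 FPKM against 6.99, 7.18 and 6.90 FPKM (log2 fold change 0.39, standard error 0.045, adjusted p = 2.1e-05). Both were higher in every brain-seeking library, and within each line the libraries of LEF1 and TCF7L2 overlapped. TCF7 had 1.28, 1.45 and 1.67 FPKM in brain-seeking libraries and 1.58, 1.74 and 1.76 FPKM in parental ones, and TCF7L1 had 1.75, 1.78 and 1.82 FPKM against 1.78, 2.25 and 2.01 FPKM. These overlapped between the lines, with 95% intervals of -0.44 to 0.04 for TCF7 and -0.37 to 0.05 for TCF7L1. TCF7 was called lower without brain-seeking replicate 3 (-0.29, adjusted p = 0.033) and with both other scalings, and TCF7L1 without parental replicate 1 (-0.24, adjusted p = 0.034) and with quantile normalization. The summed TCF/LEF level was 17.1 ± 0.140 FPKM in parental cells and 21.7 ± 0.957 FPKM in brain-seeking cells.

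The genes that differed most are spread over chromosomes 3, 10, 11 and 22. In GENCODE release 29 (GRCh38) WNT7B spans chr22:45920362-45977129, WNT5A chr3:55465715-55490539, FZD4 chr11:86945679-86955391, FZD8 chr10:35638249-35642278 and GSK3B chr3:119821323-120094417, all on the minus strand, and DKK1 spans chr10:52314296-52318042 on the plus strand. Over the 40 tested genes nearest to each along the chromosome, the median log2 fold change was 0.58 around GSK3B, 0.46 around FZD4 and 0.29 around DKK1, against 0.01 around WNT5A and -0.30 around both FZD8 and WNT7B. The neighbours of GSK3B, FZD4 and DKK1 thus had positive medians, smaller than the change of the gene itself, and the part of this in the results was not tested. Exons of FZD4 share 1399 of 7383 bases with exons of PRSS23 on the opposite strand, and PRSS23 had a mean of 71.6 FPKM in brain-seeking libraries and 51.2 FPKM in parental ones. Whether the counting used strand is not given in the sources used here, so reads from FZD4 and PRSS23 in this stretch may not be told apart. The same limit holds for WNT2B, which shares 2661 of 12561 bases with ST7L on the opposite strand. It also holds for shorter antisense overlaps of 138 bases for FZD6, 212 for DKK1, 279 for LEF1 and 300 for TCF7L2. TCF7 shares 210 of 10063 bases with SKP1 on the opposite strand. SKP1 had a mean of 142 FPKM in brain-seeking libraries and 181 FPKM in parental ones, far above TCF7. AXIN2 shares 1316 of 5226 bases with AC004805.1 and GSK3A 479 of 4126 bases with AC006486.1, both on the same strand, where reads cannot be told apart by strand either.

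The rest of the pathway was followed through 106 listed genes, of which 96 had a row and 79 were tested. Of these, 42 were higher in brain-seeking cells, 25 were lower and 12 did not pass, with a median log2 fold change of 0.18, where 84.8% were called against 77.3% of all genes tested. This split depended on the scaling too. With quantile normalization 34 were higher and 31 lower, and with median-of-ratios scaling 39 were higher and 27 lower. In the list named Wnt secretion, which also holds cell surface and matrix proteins, 3 of 5 tested genes were higher and 2 were lower. WLS, which carries Wnt proteins to the surface, had 48.6 ± 1.02 FPKM in brain-seeking libraries and 41.7 ± 1.35 FPKM in parental ones (log2 fold change 0.22, adjusted p = 9.6e-05), and PORCN, which attaches their lipid, had 4.50 ± 0.200 and 5.55 ± 0.200 FPKM (log2 fold change -0.30, adjusted p = 8.5e-04; SD, n = 3). GPC4, a cell surface heparan sulfate proteoglycan, had 2.33, 2.44 and 2.53 FPKM in brain-seeking libraries and 0.07, 0.03 and 0.08 FPKM in parental ones, a log2 fold change of 4.0 (adjusted p = 5.5e-09), which rests on a low parental level and was between 1.70 and 5.21 over the alternatives. TINAGL1, a secreted matrix protein, was lower (26.0 ± 1.89 against 56.8 ± 1.04 FPKM).

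LGR4, a receptor for R-spondins, which keep Frizzled receptors at the cell surface, was the gene of the receptor turnover list with the highest level. LGR4 had 23.4, 23.0 and 22.7 FPKM in brain-seeking libraries and 5.84, 5.90 and 5.61 FPKM in parental ones, a difference of 1.98 on the log2 scale (standard error 0.038, adjusted p = 5.8e-11). The other genes tested in that list were LGR5 and ZNRF3, while 5 of its 8 listed rows were not tested. LGR5 was called higher (log2 fold change 1.18, adjusted p = 3.5e-04) but was under 1 FPKM in both lines. ZNRF3 did not pass (log2 fold change 0.23, adjusted p = 0.052), though its libraries did not overlap between the lines. In the list of other secreted or membrane inhibitors only 2 of 6 rows were tested, KREMEN1 and KREMEN2. Both were called higher, where 44.4% of all genes tested were higher, and both were low. KREMEN1 averaged 1.17 FPKM in brain-seeking and 0.897 FPKM in parental libraries (log2 fold change 0.36, adjusted p = 0.024). KREMEN2 averaged 0.463 and 0.253 FPKM (log2 fold change 0.67, adjusted p = 0.0058).

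Of the partners of Dishevelled and the destruction complex, 11 of 23 were higher, 10 were lower and 2 did not pass, a share called of 91.3% against 77.3% of all genes tested. DVL1, a Dishevelled scaffold that passes the signal from Frizzled receptors, had 20.5, 20.7 and 21.4 FPKM in brain-seeking libraries and 36.2, 39.4 and 40.1 FPKM in parental ones (log2 fold change -0.88, standard error 0.041, adjusted p = 2.3e-08). DVL2 differed the other way (21.9 ± 0.678 against 17.9 ± 0.389 FPKM; log2 fold change 0.29, adjusted p = 2.8e-05), and DVL3 was lower (20.2 ± 0.231 against 22.4 ± 0.335 FPKM; log2 fold change -0.15, adjusted p = 0.0011). In parental cells DVL1 was thus the highest of the 3 and in brain-seeking cells the means of all 3 were between 20.2 and 21.9 FPKM. FRAT2, a protein that binds GSK3, had 7.65 ± 0.192 against 3.55 ± 0.185 FPKM (log2 fold change 1.09) and AMER1, which brings the complex to the membrane, had 3.24 ± 0.252 against 1.42 ± 0.116 FPKM (log2 fold change 1.13). CSNK1A1, the kinase that primes β-catenin for GSK3, was called lower (log2 fold change -0.06, adjusted p = 0.044), a call that the omission of any of 5 libraries ended, all but brain-seeking replicate 1, with adjusted p between 0.055 and 0.16.

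The nuclear cofactors had 8 higher and 5 lower of 17 tested genes (76.5% called) and the planar polarity list 5 higher and 4 lower of 14 (64.3% called), both at or under the 77.3% of all genes tested. TLE3, a corepressor of TCF/LEF factors, was lower (7.44 ± 0.222 against 16.0 ± 0.136 FPKM; log2 fold change -1.09, adjusted p = 3.9e-09). Of the planar polarity list PTK7, a receptor-like protein of that branch, was higher (25.9 ± 0.680 against 11.7 ± 0.445 FPKM; log2 fold change 1.15), and PRICKLE2 was lower (0.647 ± 0.0404 against 1.40 ± 0.0929 FPKM; log2 fold change -1.0, and -0.54 at a pseudocount of 1).

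In the calcium branch 11 of 15 tested genes were higher and 4 were lower, where 44.4% of all genes tested were higher and 32.9% lower. PRKCA, the α form of protein kinase C, had 39.6, 39.3 and 38.4 FPKM in brain-seeking libraries and 17.0, 17.3 and 16.1 FPKM in parental ones (log2 fold change 1.21). CAMK2D, a calmodulin-dependent kinase, had 9.04 ± 0.504 against 4.42 ± 0.0945 FPKM (log2 fold change 1.01). Within families the members moved apart: of the phospholipases that start the calcium signal, PLCB1 was higher (2.90 ± 0.0702 against 1.12 ± 0.136 FPKM) and PLCB4 lower (0.130 ± 0.0346 against 2.45 ± 0.273 FPKM). Of the NFAT factors that calcium activates, NFATC4 was higher (1.23 ± 0.104 against 0.04 ± 0.01 FPKM) and NFATC1 lower (1.02 ± 0.104 against 2.93 ± 0.143 FPKM). PRKCA, NFATC4 and GSK3B were among the genes that the study picked from these libraries, so their direction is no independent evidence.

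**Figure D4:**
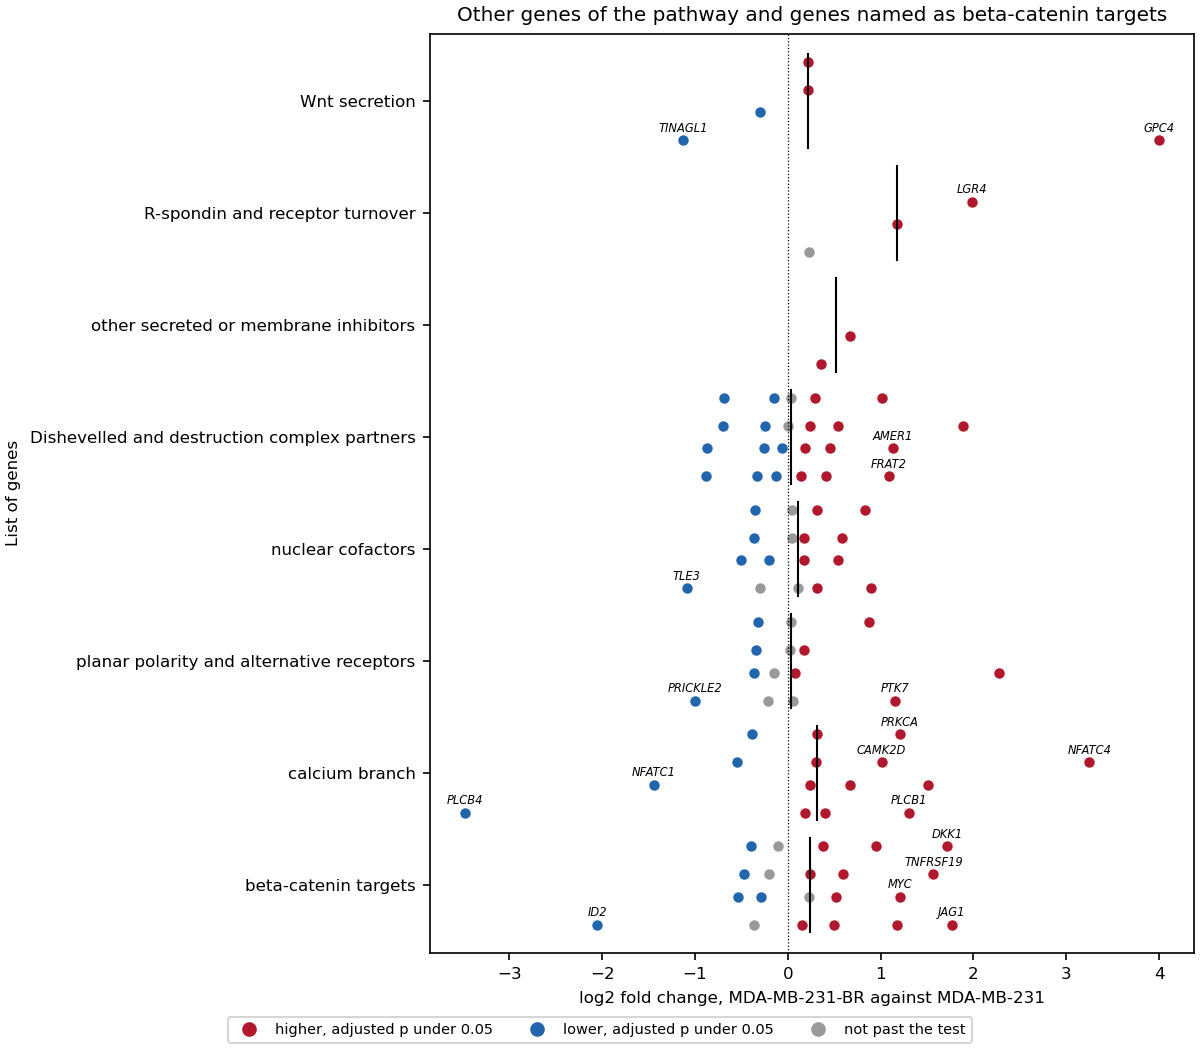
The log2 fold change of brain-seeking (MDA-MB-231-BR) against parental (MDA-MB-231) cells (x axis) is plotted for each tested gene of 7 lists of other pathway genes and of the β-catenin target list (y axis), red where higher, blue where lower and grey where the test was not passed, with a black line at the median of each list. Names stand at genes past an absolute log2 fold change of 1 with a mean of at least 1 FPKM in either line, and most lists hold points on both sides of 0.

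Genes known as β-catenin targets went in both directions. Of 30 listed genes 26 had a row and 21 were tested, and 12 were higher in brain-seeking cells, 5 were lower and 4 did not pass, with a median log2 fold change of 0.24. The list includes AXIN2, LEF1, TCF7 and DKK1 of the genes above, and among the other 17 tested genes 9 were higher and 5 lower, with a median of 0.23. The share called was 81.0%, against 77.3% of all genes tested, and without brain-seeking replicate 3 the number of lower genes was 8. MYC, a transcription factor that drives cell growth, had 84.0, 85.4 and 84.4 FPKM in brain-seeking libraries and 36.9, 36.9 and 35.7 FPKM in parental ones (log2 fold change 1.21, adjusted p = 8.3e-11), and it too was picked by the study from these libraries. JAG1, a Notch ligand, had 27.6, 25.8 and 26.3 FPKM against 7.89, 8.05 and 7.18 FPKM (log2 fold change 1.77, adjusted p = 6.2e-10). Both were higher in every brain-seeking library, as was TNFRSF19, a receptor of the tumour necrosis factor family (1.32 ± 0.175 against 0.383 ± 0.0971 FPKM; log2 fold change 1.57, and 0.75 at a pseudocount of 1). ID2, an inhibitor of differentiation, was lower in every brain-seeking library (0.477 ± 0.0945 against 2.26 ± 0.205 FPKM; log2 fold change -2.05, adjusted p = 3.3e-07, and -1.14 at a pseudocount of 1).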

How the data were processed

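The authors removed low-quality reads with SOAPnuke and, per the submitters' processing notes, used HISAT2 2.0.4, Bowtie2 2.2.5 and GRCh38.p12. They deposited FPKM with 2 decimals for each gene and library. The program that computed FPKM is not given in the sources used here. Read counts were not used here and steps of whole reads could not be read off the FPKM values, so precision is given by the spread of libraries only.

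Libraries were grouped by title, since the cell line tag counts up within a line. In R 4.3.3 with limma 3.58.1, log2(FPKM + 0.1) was fitted for 13465 genes whose mean reached 0.1 FPKM, with 1 term for the line by lmFit and eBayes with a trend, with Benjamini-Hochberg adjustment over these genes. Fold changes on this scale understate those of low genes. The study's count test could not be run on FPKM. The fit was run on simulated data with 199 of 12980 genes changed. Of these 189 were called in the right direction, and 3 of 12781 unchanged genes were called. Far fewer genes were changed there than were called in these data, and noise was drawn separately for each library. That run therefore says nothing about the scaling or about technical replicates.

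Families were summed per library, and neighbours were the 20 genes tested on either side in RefSeq order. Values per library are given for genes of the rule with a mean of at least 1 FPKM in either line. Other pathway and target genes are named when past the test and an absolute log2 fold change of 1 with a mean of at least 1 FPKM in either line, together with PORCN, WLS, DVL1, DVL2, DVL3 and CSNK1A1. The promoter letters, LGR5, ZNRF3, KREMEN1, KREMEN2 and the low ligands named singly were chosen after values were seen. The genes and lists were chosen with earlier results of these data known. Alternatives were pseudocounts of 1 and 0.01, no filter, a mean of at least 1 FPKM, median-of-ratios scaling, quantile normalization, no trend, a term for the replicate number and each library left out. Python 3.11.15, pandas 2.3.3, SciPy 1.17.1 and matplotlib 3.10.9 were used.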

Additional observations from a re-analysis of the deposited data

How the results depend on the processing

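The 6 genes higher by more than 1 log2 unit numbered 6 under all 14 alternatives. The number of lower Wnt genes was 8, and 14 with quantile normalization, 10 with median-of-ratios scaling, 6 with a mean of at least 1 FPKM and between 7 and 9 with a library left out. Past the fold criterion 1 gene was lower, WNT10A, and 0 were at a pseudocount of 1 (limma; 8 lower at an adjusted p under 0.05), 0 with a mean of at least 1 FPKM, 3 with quantile normalization, and between 0 and 1 with a library left out, since WNT10A fell under the level needed for testing without parental replicate 1 or 2. The number of lower target genes, 5, ranged from 5 to 8 with a library left out. Signs turned for APC (-0.04) and LRP6 (-0.11) with quantile normalization, and for FZD1 (-0.03), which was between -0.10 and 0.04 with a library left out and at or above 0.00 without brain-seeking replicate 2, parental replicate 1 or parental replicate 3. The causes were not tested where none is given. Of 695 values for 50 named genes under alternatives, 674 kept their direction and their side of the threshold. These 50 leave out DKK3, WNT2B, WNT3, WNT9A, WNT10B, LGR5, ZNRF3, KREMEN1 and KREMEN2, and alternatives in which a gene was not tested are not counted. Of the 21 called Wnt genes, 2 (AXIN2 and DKK3) lost their call under an alternative that tested them. A call was gained by 8 Wnt genes without one.

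Replicate numbers are shared between the lines, but the deviations of same-numbered libraries correlated at 0.087, -0.040 and -0.106 over 11124 genes, so the numbers name libraries and do not pair them. With the replicate block, 13 Wnt genes were higher and 8 lower, and no call of the 50 named genes changed. Values with 2 decimals and no known depth limit what can be said of genes under 0.1 FPKM.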
